A study of Rattus norvegicus with 6 samples.

Results

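The annexins and S100 proteins described here are 10 calcium-binding proteins linked to epithelial injury, namely the annexins Anxa1, Anxa2, Anxa3, Anxa4 and Anxa5 and the S100 proteins S100a4, S100a6, S100a8, S100a10 and S100a11. The genes were taken by name, and 17 array probes matched them through their transcript accessions. All 10 were present among the 15645 named genes of the array. All 10 were well above background on each of the 6 arrays, so no value of these 10 is a bound. The RNA was of kidney cortex, from male Sprague-Dawley (Crl:CD(SD)) rats bought at 5 weeks of age and fed a basal diet. For 4 weeks 3 rats were given corn oil (vehicle) and 3 were given 300 mg/kg/day of TBBC, a phenolic antioxidant in which a sulfur atom joins a pair of tert-butyl-m-cresol rings. Each rat had its own 1-colour oligonucleotide array, and the submitters describe the replicates as biological. Whole cortex was measured, so more cells of a type and more RNA per cell cannot be told apart.

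Annexins bind acidic phospholipids when calcium rises and help to hold, seal and sort membranes. S100 proteins are small EF-hand proteins that form dimers and, on binding calcium, attach to target proteins, several of which are annexins: S100a10 pairs with Anxa2, S100a11 with Anxa1, and S100a6 with several annexins. S100a10 is the exception in the family, since its calcium sites are inactive and it holds its partner without calcium. In kidney these proteins are found mainly outside the healthy proximal tubule, in the distal nephron, vessels, glomeruli and interstitial cells, and several are known to appear in tubule cells after injury.

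All 10 transcripts had a higher mean in the TBBC rats, with a median log2 fold change of 0.46, where the median over all 32956 transcripts tested was -0.02 and 46.5% lay above 0. Values are log2 of the signal over the array's 75th percentile. In 8 of the 10 the lowest TBBC rat lay above the highest vehicle rat, as did 13.1% of all transcripts tested. At an unadjusted p under 0.05 (limma) 7 of the 10 were higher and 0 lower, where 9.55% of all transcripts were higher. That count of 7 was 4 without vehicle 1 (6.15% of all transcripts) and 3 without vehicle 3 (6.35%). It was 5 with the mean over a gene's probes (9.62% of all), where 7 did not overlap (13.1% of all). The median difference of the 10 was 0.71 without TBBC 1 and 0.30 without TBBC 3. After Benjamini-Hochberg adjustment over all transcripts 1 of the 10 passed the threshold of 0.05, S100a10, and 0.531% of all transcripts passed it in either direction. The 4 with the largest differences were S100a10, S100a6, Anxa2 and S100a11, with log2 fold changes from 0.81 to 1.13. The other 6 lay between 0.24 and 0.49. Within the slide that both groups share, S100a10 and Anxa2 were still the largest, at 0.95 and 0.58, and Anxa1 (0.42) lay above S100a6 and S100a11 (0.35 each).

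**Figure D1:**
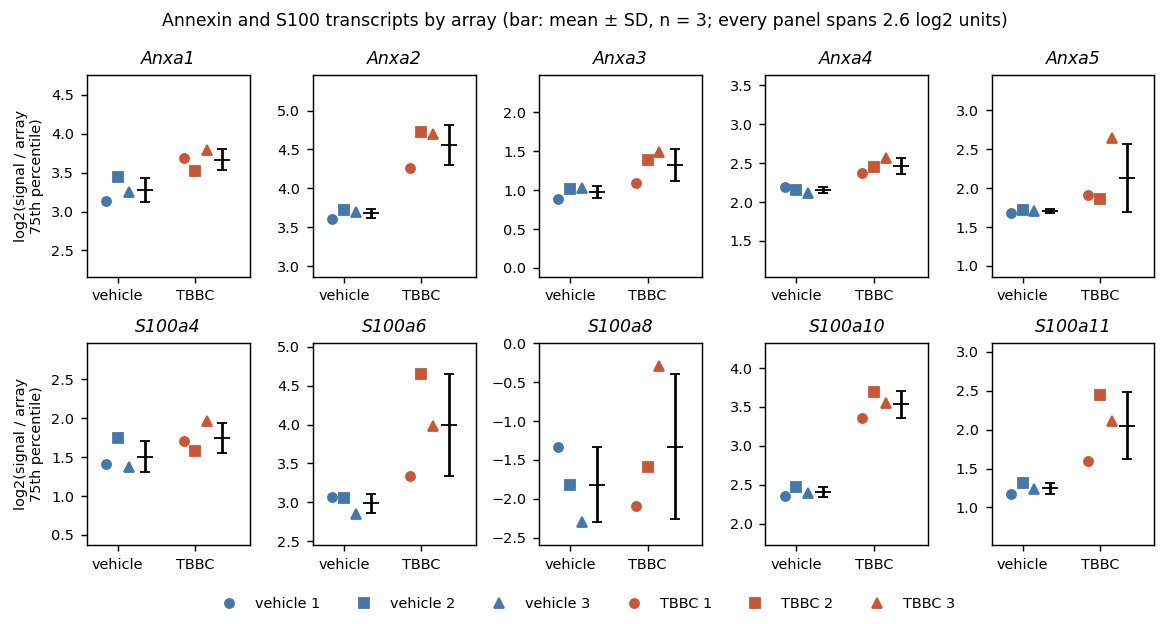
Signal of each of the 10 transcripts (y axis, log2 of signal over the array's 75th percentile) in 3 vehicle rats (blue) and 3 TBBC rats (red), with each group's mean and SD (n = 3) as a black bar. S100a10 has the clearest gap, from a vehicle maximum of 2.47 to a TBBC minimum of 3.36, while the groups overlap for S100a4 and S100a8.

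S100a10 (also called p11) is the light chain that carries Anxa2 to the plasma membrane and binds plasminogen at the cell surface. It rose 2.18-fold, with a 95% interval of 1.78 to 2.68. Its level was 2.35, 2.47 and 2.40 in the vehicle rats and 3.36, 3.69 and 3.55 in TBBC 1, 2 and 3. The gap between the groups exceeded the range within either. The log2 fold change was 1.13 ± 0.12 (SE; limma, adjusted p = 0.0313), larger than that of 98.8% of the transcripts tested. A single probe measured this gene. The S100a10 call held without TBBC 1 and was lost with any other array left out, at adjusted p-values (limma) from 0.05005 without TBBC 3 to 0.166 without vehicle 2, with log2 fold changes between 1.05 and 1.22 in all 6 of these fits. TBBC 2 and 3 were on another slide than the other 4 arrays, and within the shared slide, where TBBC 1 stands alone against the vehicle rats and is assumed to vary like them, the value was 0.95 (limma, adjusted p = 0.0752).

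Anxa2, the heavy chain of the same complex, an actin- and lipid-binding annexin of the cell cortex, was 1.84-fold higher. It stood at 3.61, 3.73 and 3.70 in the vehicle rats and at 4.26, 4.72 and 4.70 in TBBC 1 to 3. The groups did not overlap, and TBBC 2 and 3 were alike while TBBC 1 lay lower. The log2 fold change was 0.88 ± 0.15 (SE) and did not pass (limma, adjusted p = 0.0697). It passed in 3 of 22 alternatives, at limma adjusted p-values of 0.0437 with normexp background correction, 0.0303 with a trended robust variance and 0.0380 without TBBC 1. A dimmer Anxa2 probe gave a like difference of 0.76 ± 0.12, from 1.75, 2.01 and 1.89 to 2.54, 2.66 and 2.74. Within the shared slide Anxa2 was at 0.58.

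The RefSeq promoter table (build GRCr8) holds entries for 8 of the 10 genes, among them Anxa2, S100a6 and S100a11, which are shown since they had the largest differences of those 8. The 250 bases before each start site are printed, all on the plus strand, and the 50 bases after it were searched too. Capitals mark matches to the letters of an AP-1 motif (TGANTCA), an antioxidant response element core (TGACNNNGC), an EGR1 motif (GCGNGGGCG), a GC box (GGGCGG) or a TATA box (TATAAA), searched on both strands. The GC box and EGR1 letters can overlap, and the GC boxes of S100a11 overlap each other.
Anxa2, chr8:78986002-78986251: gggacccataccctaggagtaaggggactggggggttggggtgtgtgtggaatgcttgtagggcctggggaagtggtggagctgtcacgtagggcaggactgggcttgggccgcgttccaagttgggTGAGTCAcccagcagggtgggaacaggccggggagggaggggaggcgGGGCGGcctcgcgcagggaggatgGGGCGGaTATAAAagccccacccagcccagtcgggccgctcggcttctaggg
S100a6, chr2:178398287-178398536: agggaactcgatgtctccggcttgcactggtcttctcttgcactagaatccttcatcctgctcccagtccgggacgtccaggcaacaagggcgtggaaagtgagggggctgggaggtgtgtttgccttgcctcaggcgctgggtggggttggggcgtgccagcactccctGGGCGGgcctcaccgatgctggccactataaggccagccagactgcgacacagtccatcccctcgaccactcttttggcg
S100a11, chr2:181874882-181875131: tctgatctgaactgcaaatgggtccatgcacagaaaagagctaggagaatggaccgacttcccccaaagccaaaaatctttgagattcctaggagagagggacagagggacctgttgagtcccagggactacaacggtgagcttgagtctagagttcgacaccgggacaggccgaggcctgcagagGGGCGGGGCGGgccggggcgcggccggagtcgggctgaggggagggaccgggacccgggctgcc

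Anxa2 was the 1 gene of the 8 with the AP-1 letters, which 7.33% of all 33469 promoters hold, and its match began at position -123 from the start site. Its TATA box letters began at -45, with GC boxes at -76 and -52. TATA letters were also found in Anxa1 and S100a4, so in 3 of 8, where 14.2% of all promoters have them. GC box letters were found in 6 of 8 (all but Anxa1 and S100a4), against 33.1% of all. The antioxidant element core was matched in Anxa1 at -127 (1 of 8, against 12.1%), and the EGR1 letters in 0 of 8 (4.98% of all). Such matches describe letters in these windows and were not tested as binding sites.

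S100a6 (calcyclin), which binds the ubiquitin-linked protein Cacybp and several annexins, showed the widest spread among the members whose groups did not overlap. It was at 3.06, 3.05 and 2.85 in the vehicle rats and at 3.33, 4.65 and 3.98 in TBBC 1, 2 and 3. TBBC 1 thus lay just above the vehicle range, and TBBC 2 far above it, 1.66 over the vehicle mean. The mean difference was 2.00-fold, at 1.00 ± 0.32 (SE), and did not pass (limma, adjusted p = 0.169). Within the shared slide, which holds TBBC 1 alone of the TBBC rats, it was 0.35.

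S100a11 (calgizzarin), the partner of Anxa1, was 1.75-fold higher, at 0.81 ± 0.22 (SE; limma, adjusted p = 0.132). Its values were 1.18, 1.32 and 1.24 in the vehicle rats and 1.60, 2.45 and 2.11 in TBBC 1 to 3. Within the shared slide S100a11 was at 0.35. The order of the TBBC rats was that of S100a6, with TBBC 2 highest and TBBC 1 lowest. Of the 11 injured tubule markers tested, 5 had that order (Spp1, Krt8, Krt18, Clu and Timp1) and 6 did not, with Lcn2, Vim, Krt19 and Cd44 highest in TBBC 3, Havcr1 lowest there and Vcam1 highest in TBBC 1. All 11 had a mean above the vehicle rats and 2 of them, Havcr1 and Spp1, passed (limma). The list's summed linear level was 43.4 to 44.9 in the vehicle rats and 197, 413 and 365 in TBBC 1 to 3. Spp1 was the brightest gene of this list in TBBC, at 7.23, 7.94 and 7.93 in TBBC 1 to 3, and so was alike in TBBC 2 and 3. Clu (6.53 and 6.14), Havcr1 (3.83 and 0.99) and Krt18 (4.73 and 4.09) were lower in TBBC 3 than in TBBC 2. Lcn2, Vim, Krt19 and Cd44 were higher there. The list's median marker lay 0.30, 1.60 and 2.06 above the vehicle mean, so the sum was highest in TBBC 2 and the median in TBBC 3. The part of these markers in the S100a6 and S100a11 values was not tested.

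**Figure D2:**
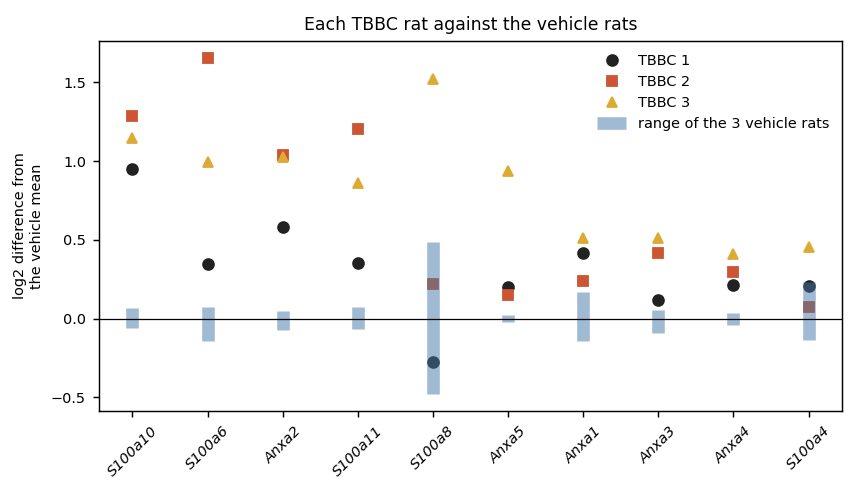
Log2 difference of each TBBC rat from the vehicle mean (y axis) for the 10 transcripts, ordered by log2 fold change (x axis), with the range of the 3 vehicle rats as a blue bar. TBBC 2 is highest for S100a10, S100a6, Anxa2 and S100a11, and TBBC 3 for the other 6 transcripts.

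The annexins other than Anxa2 differed less. Anxa1 (lipocortin), a ligand of formyl peptide receptors that restrains inflammation, was at 3.14, 3.45 and 3.25 in the vehicle rats and at 3.69, 3.52 and 3.79 in TBBC 1 to 3. TBBC 2 lay just above vehicle 2. Its difference was 0.39 ± 0.13 (SE; limma, adjusted p = 0.185), and a second, slightly dimmer probe gave 0.21 ± 0.15 with groups that overlapped.

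Anxa3, a small annexin of leukocytes and epithelia, was at 0.88, 1.01 and 1.03 in the vehicle rats and at 1.095, 1.39 and 1.49 in TBBC 1 to 3. Its lowest TBBC rat lay just above the vehicle range. The difference was 0.35 ± 0.14 (SE; limma, adjusted p = 0.228). A dimmer probe gave 0.27 and the dimmest 0.03, so the 3 probes did not give 1 value. Within the shared slide Anxa3 was at 0.12.

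Anxa4, an annexin of the apical and basolateral membranes of epithelia, had the smallest standard error of the 10 members. It was at 2.19, 2.16 and 2.11 in the vehicle rats and at 2.37, 2.45 and 2.57 in TBBC 1 to 3. The step was small but wider than either group's spread, at 0.31 ± 0.10 (SE; limma, adjusted p = 0.182), or 1.24-fold. The other Anxa4 probe gave 0.19.

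Anxa5, the annexin used as a label for exposed phosphatidylserine on dying cells, stood apart in 1 rat. The vehicle rats were at 1.68, 1.72 and 1.71, and TBBC 1 and 2 at 1.91 and 1.85, while TBBC 3 was at 2.64. The second probe showed the same picture, with 0.59 and 0.61 in TBBC 1 and 2 and 1.39 in TBBC 3. The log2 fold change of 0.43 ± 0.22 (SE; limma, adjusted p = 0.339) was 0.18 without TBBC 3, 0.57 without TBBC 2 and 0.20 within the shared slide.

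S100a4 (metastasin), an S100 protein of fibroblasts and leukocytes that binds non-muscle myosin, had overlapping groups. It was at 1.41, 1.74 and 1.37 in the vehicle rats and at 1.71, 1.58 and 1.96 in TBBC 1 to 3. The log2 fold change was 0.24 ± 0.16 (SE; limma, adjusted p = 0.440), and 0.18 in its other probe. 

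S100a8, which joins S100a9 to form calprotectin, the main cytosolic S100 complex of neutrophils and monocytes, was the dimmest and most scattered member. Its values were -1.33, -1.82 and -2.30 in the vehicle rats and -2.10, -1.60 and -0.30 in TBBC 1, 2 and 3. TBBC 1 and 2 lay inside the vehicle range and TBBC 3 lay 1.52 above the vehicle mean. The log2 fold change of 0.49 ± 0.49 (SE; limma, adjusted p = 0.627) was -0.028 without TBBC 3 and -0.28 within the shared slide. S100a9 was also highest in TBBC 3, with TBBC 1 below all vehicle rats, at -0.03, -0.65 and -0.96 in the vehicle rats and -1.03, -0.36 and 0.92 in TBBC 1 to 3.

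Marker lists of leukocytes and fibroblasts were highest in the same rat. The median macrophage marker of 13 tested lay 0.86 above its vehicle mean in TBBC 3, against -0.06 and -0.22 in TBBC 1 and 2. The list's summed linear level was 203 in TBBC 3, against 95.6 and 100.3 in TBBC 1 and 2 and 105 to 129 in the vehicle rats. Such a sum mostly follows the brightest gene of its list, here Lyz2, at 5.82, 6.02 and 7.06 in TBBC 1 to 3. Lymphocyte markers (8 tested) were at 0.68 in TBBC 3, with a summed level of 3.15 there and 1.46 to 2.02 on the other 5 arrays. Fibroblast markers (6 tested) were at 0.82, with a sum of 43.5 there and 19.8 to 28.3 on the other arrays. Of the neutrophil list only 3 of 8 genes with a probe were tested, with a median of 0.37 and a sum of 0.52 in TBBC 3 (0.31 to 0.46 on the other arrays), and Elane, Ltf, Ngp, Cxcr2 and Mmp8 failed the filter on dim probes. All 3 tested neutrophil markers had a lower mean in TBBC, with log2 fold changes from -0.15 to -0.13. Of these 4 lists 0 genes passed (limma). The macrophage marker Cd14 was the 1 gene higher at an unadjusted p under 0.05 (limma), as were 9.55% of all transcripts. Cd14 was highest in TBBC 2, 0.69 above its vehicle mean, against 0.27 in TBBC 3. The part of such cells in the S100a8, S100a4 and Anxa5 values was not tested. Without TBBC 3, 9 of the 10 members had a higher mean in TBBC, 8 did not overlap (21.1% of all transcripts in that fit) and 5 were higher at an unadjusted p under 0.05 (11.8% of all).

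**Figure D3:**
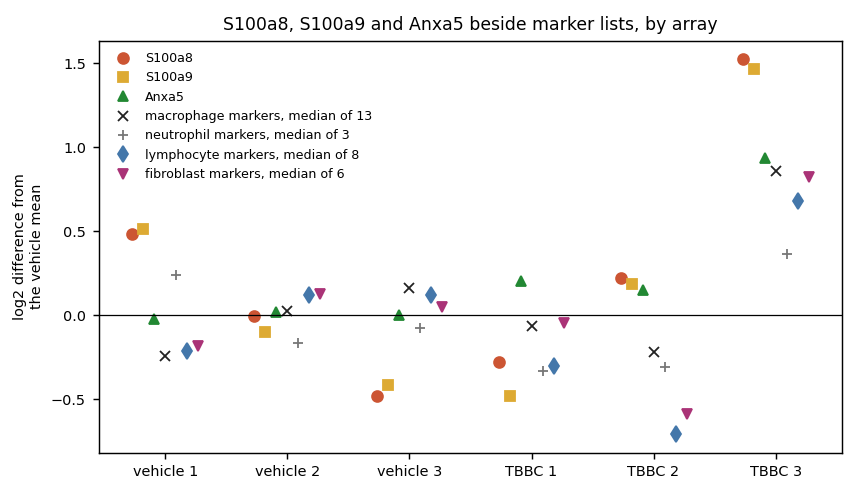
Log2 difference from the vehicle mean (y axis) in each of the 6 arrays (x axis) for S100a8, S100a9 and Anxa5 and for the median tested marker of 4 cell types. TBBC 3 is the array where all 7 are highest, at 1.52 for S100a8 and 0.86 for the macrophage markers.

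Of the other annexins, 5 of 6 with a probe were tested and 0 passed in either direction (limma), with a median log2 fold change of -0.18. At an unadjusted p under 0.05 in either direction (limma) there was 1, against 6577 of all 32956 transcripts. Anxa7 (synexin), a membrane-fusing annexin of secretory cells, was the 1 with a higher mean. It was at 1.60, 1.41 and 1.80 in the vehicle rats and at 2.13, 2.63 and 1.91 in TBBC 1 to 3, without overlap, at 0.62 ± 0.21 (SE; limma, adjusted p = 0.186). Its second probe gave 0.96 ± 0.20 with TBBC 1 highest, at 2.42. Anxa6, a large annexin with a doubled core, was at -0.18 ± 0.15 and Anxa11 at -0.18 ± 0.14. A dimmer Anxa11 probe was at -0.35 ± 0.11, with all TBBC rats below all vehicle rats. Anxa10 was dim and scattered, at -0.80 ± 0.91. Anxa13 was scattered, at -2.05 ± 1.104, with vehicle rats at -3.11, -2.36 and 0.03 and TBBC 1 to 3 at -3.00, -2.73 and -5.86. Both Anxa8 probes failed the filter.

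Of the other S100 genes, 7 of 10 with a probe were tested and 0 passed (limma), with a median of 0.02. At an unadjusted p under 0.05 (limma) 1 was higher and 1 lower, against 6577 of all 32956 transcripts in either direction. S100g (calbindin-D9k), the vitamin D-dependent calcium buffer of the distal tubule, had the largest difference of the family and the least even one. It was at 2.03, 2.57 and 2.06 in the vehicle rats, at 6.09 and 5.15 in TBBC 1 and 2, and at 2.37 in TBBC 3, inside the vehicle range. Its log2 fold change was 2.32 ± 0.91 (SE; limma, adjusted p = 0.230). S100a1 (0.02), S100a13 (-0.03) and S100a16 (0.12) were close to 0, with standard errors from 0.10 to 0.19, and S100b was at -0.44 ± 0.33.

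**Figure D4:**
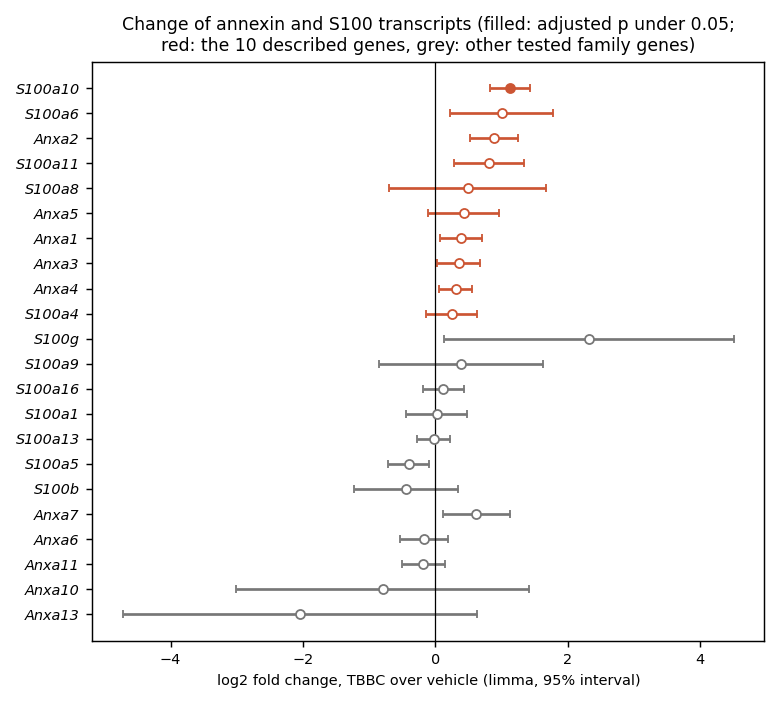
Log2 fold change of TBBC over vehicle (x axis) with its 95% interval from limma for the 10 members (red) and the 12 other annexin and S100 genes tested (grey). Filled symbols passed an adjusted p of 0.05, which only S100a10 did, and the S100g, Anxa10 and Anxa13 intervals are the widest.

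Most S100 genes lie in a row on rat chromosome 2, and neighbours in that row did not share 1 value. In RefSeq's GRCr8 order S100a5 lies between S100a4 and S100a6. S100a5 was at -0.41 ± 0.13 (SE; limma, adjusted p = 0.169), with all TBBC rats below all vehicle rats, while S100a6 was at 1.00 and S100a4 at 0.24. The S100a5 value rests on 1 probe, since the other probes of this gene were well above background on 0 arrays. S100a11 and S100a10 are next to each other, at 0.81 and 1.13, and so are S100a8 and S100a9, at 0.49 and 0.39.

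Receptors and partners of the family were followed in lists written with earlier results of these data known, and 0 genes of the 4 lists passed (limma). Of plasminogen activation at the cell surface, the process in which the S100a10 and Anxa2 complex takes part, 5 genes were tested. Of these 3 had an unadjusted p under 0.05 in either direction (limma), as had 6577 of all 32956 transcripts. Plaur, the urokinase receptor, was at 0.55 ± 0.14 (SE; limma, adjusted p = 0.119) with groups that did not overlap, while its ligand Plau, chosen after its values were seen, was at -0.48 ± 0.16 with all TBBC rats below the vehicle rats.

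Of 3 channels that the complex brings to the cell surface, Trpv6, an epithelial calcium channel, was at -5.21, -5.15 and -4.72 in the vehicle rats and at -4.05, -2.68 and -1.52 in TBBC 1 to 3. TBBC 3 was highest, the TBBC rat with the lowest S100g, and the log2 fold change was 2.28 ± 0.60 (SE; limma, adjusted p = 0.127). Trpv5, the main renal channel of this pair, was at 0.46 ± 0.34 with overlapping groups. Among 6 receptors, 0 at an unadjusted p under 0.05, the lipid scavenger Cd36 (-0.21 ± 0.12) and Ly96 (0.33 ± 0.31), which helps Tlr4 bind its ligands, had the smallest p-values. Of 7 repair and scaffold partners, also 0 at an unadjusted p under 0.05, Dysf (dysferlin), a membrane repair protein, was at -0.25 ± 0.11 and Myh9, the non-muscle myosin heavy chain that S100a4 binds, at 0.33 ± 0.17, and Ahnak, the large scaffold of the complex, was not analysed here.

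All 6 proximal tubule markers were well above background on every array. Each had a lower mean in TBBC, with a median of -0.23, and 0 passed (limma), while Lrp2 and Aqp1 were lower at an unadjusted p under 0.05 without overlap. Their summed linear level was 1052 to 1124 in the vehicle rats and 826 to 978 in TBBC, and the part of this in the members' values was not tested. Of 6 urothelial markers 4 were tested, with a summed level of 0.39 to 0.61 in the vehicle rats and 0.26 to 0.40 in TBBC. These urothelial markers all had a lower mean in TBBC, with a median of -0.51, and their part in the members' values was not tested. Of the smooth muscle, endothelial, thick ascending limb, distal tubule and collecting duct lists 4, 6, 3, 2 and 4 genes were tested. Of these 0 passed (limma), with list medians of 0.08, -0.27, -0.50, 0.07 and -0.28. At an unadjusted p under 0.05 (limma) 5 of their genes were lower and 0 higher. Of all 32956 transcripts 6577 had such a p in either direction, and 9.55% were higher. The named genes whose values over the 6 arrays were most like those of S100a10 were Reg3b, Plec, Evpl, Rpl8 and Dynlt1, with Pearson r from 0.993 to 0.998, given as a description since the groups themselves shape such a correlation. Plec (plectin) and Evpl (envoplakin), both cytolinkers of epithelial cells, were at 0.81 ± 0.11 (limma, adjusted p = 0.0508) and 0.99 ± 0.12 (0.0370). The secreted lectin Reg3b was well above background in the TBBC rats only, so its r rests on vehicle values at background, and its level in TBBC was at least 9.26-fold higher, a bound from the lowest signal well above background on each array. Rpl8, a ribosomal protein, was at 0.52 ± 0.09 and Dynlt1, a dynein light chain, at 0.62 ± 0.09, and neither passed.

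On each array 67.1% to 70.9% of probes lay well above background, and the 75th percentile of the signal ran from 861 to 1038, with TBBC 2 lowest in both. In TBBC the SD exceeded that of the vehicle rats in 8 of the 10 members, and over all transcripts the median SD was 0.228 in TBBC and 0.125 in the vehicle rats. The vehicle rats and TBBC 1 were on slide 1 and TBBC 2 and 3 on slide 2, and TBBC 1 was the lowest TBBC rat in 7 of the 10 members. With slide as a fixed term, where the difference rests on TBBC 1, 9 of 10 were higher and 2 were higher at an unadjusted p under 0.05 (7.71% of all transcripts). For TBBC 2 and 3 slide and treatment cannot be told apart.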

How the data were processed

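Agilent 1-colour (Cy3) arrays of 6 rats were used. The deposited scanner files hold the authors' spot intensity values, background-subtracted and detrended within an array, and the file headers name Feature Extraction 10.7.1.1. The authors' deposited value table holds a linear ratio, with no log or centring, which is the processed signal over a divisor that lies 0.116% to 0.232% from the 75th percentile of the array. Its column medians were 0.1113, 0.1118 and 0.1126 for the vehicle rats and 0.1126, 0.1067 and 0.1144 for TBBC 1 to 3. Which test the authors ran is not given in these sources. Of 61537 non-control probes, 28206 were named by accession through RefSeq (GRCr8), matched without versions. The file headers name another build, so only promoter windows carry coordinates.

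Each processed signal was divided by its array's 75th percentile and log2-transformed. Spots flagged as non-uniform (0 to 9 on an array) or as population outliers were dropped. A probe was tested when all unflagged arrays of a group were well above background, with at least 2 such arrays in each group. Genes were represented by the brightest of their tested probes and unnamed probes were kept singly (32956 transcripts, 12298 of them named genes). The 2 groups were compared with limma 3.58.1 in R 4.3.3 (lmFit and eBayes, two-sided), Benjamini-Hochberg adjustment covered all transcripts, and the threshold was 0.05. The procedure was tested on simulated data. The number of arrays limits the precision. Bounds use, per array, the lowest signal well above background.

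The genes described, the related and marker lists, the tests and the alternatives were chosen with earlier results of these data known. All members and tested relatives are named, as are, by list, the 2 partners of smallest p, markers needed beside a result, and the 5 genes most like the member with the largest change. One gene that this rule names is not reported here. Alternatives covered scaling (quantile, median, probes detected on all arrays), normexp on the median signal (offset 50), the deposited ratio table, the filter, the flags, the probes of a gene, eBayes settings, array weights, slide (random block with statmod 1.5.0), the replicate number as a block and each array left out, the filter being recomputed where arrays were dropped.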

Additional observations from a re-analysis of the deposited data

How the results depend on the processing

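Over 22 alternatives the 10 members kept the direction of their difference in 217 of 220 values. The other 3 were of S100a8, whose log2 fold change was -0.28 with slide as a fixed term, -0.28 within the slide that holds both groups and -0.028 without TBBC 3. With 1 array left out it ran from -0.028 to 0.87. Changes to the filter, the flags, the eBayes settings, each probe on its own and the replicate block left every member's log2 fold change as reported. Those settings could not alter a direction. Slide as a fixed term and the shared slide gave each member the same value, so the 220 values are not separate checks. The number of members past the threshold, 1 in the reported fit, was 2 with normexp background correction and with a trended robust variance (S100a10 and Anxa2), and 0 with no filter on dim probes, with slide as a fixed term, within the shared slide and with the replicate number as a block. It ran from 0 to 2 with 1 array left out (2 without TBBC 1, 0 without each of the others). Of all transcripts 175 were called in the reported fit, 761 with normexp, 1087 with the trended robust variance, 333 with each probe on its own, 307 within the shared slide, 52 with no filter, 48 with slide as a fixed term, and 10, 6, 14, 254, 58 and 274 without vehicle 1, 2, 3 and TBBC 1, 2, 3. Same-numbered rats did not deviate together (correlations across transcripts of -0.09, 0.03 and -0.07), so the numbers were not taken as pairs. With the replicate number as a block, 0 transcripts were called by limma in all (7.80% were higher at an unadjusted p under 0.05) and S100a10 had an adjusted p of 0.124. S100a10 passed in 13 of 22 alternatives, with log2 fold changes from 0.95 to 1.22 and adjusted p-values (limma) from 0.0125 to 0.166. With slide as a fixed term its adjusted p was 0.142, and with slide as a random block 0.0433. With no filter it was 0.0686, where 48976 transcripts were tested. The count of members higher at an unadjusted p under 0.05 was 7 in the reported fit (9.55% of all transcripts). It ran from 2 with slide as a fixed term (7.71% of all) to 7. It was 5 with the mean over a gene's probes (9.62%), 4 without vehicle 1 (6.15%) and 3 without vehicle 3 (6.35%). The cause of these changes was not tested. All 10 members were well above background on every array.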
